A study of Mus musculus with 14 samples.

Results

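The genes described here are 32 genes listed as those of the mature hepatocyte, although Afp among them is the fetal counterpart of albumin. They were listed by name with earlier results of these data known, of 18463 protein-coding genes that could be placed on mouse genome build mm9. They comprise 5 carrier proteins of plasma (Alb, Afp, Ttr, Rbp4, Ahsg), 5 apolipoproteins (Apoa1, Apoa2, Apob, Apoc3, Apoe), 3 fibrinogen chains (Fga, Fgb, Fgg) and 3 alpha-1-antitrypsin paralogs (Serpina1a, Serpina1b, Serpina1c). The enzymes are 6 of nitrogen and amino acid metabolism (Cps1, Tat, Tdo2, Hpd, Amdhd1, Glul), 4 cytochrome P450 enzymes (Cyp3a11, Cyp2e1, Cyp1a2, Cyp7a1) and 4 of glucose and glycogen metabolism (G6pc, Pck1, Gys2, Pklr). The last 2 are membrane proteins, Asgr1 and Gjb1. Genes without RNA were counted as well, by the histone marks on their loci.

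All samples came from a mouse line that the labels call LEPC, of strain C57BL/6 at passage 3. Cells overexpressing the microRNA miR-93-5p, cells overexpressing a mutated miR-93-5p (here "mutant") and a control labelled scr were each profiled by RNA-seq and by a pulldown of mRNA interacting with the microRNA, for which the design text names biotin on the miR-93-5p bait. Cells overexpressing miR-93-5p and scr cells were also profiled for H3K4me3, H3K27me3 and H3K9me3 by ChIP-seq, and the 2 inputs were left out of the analysis. With a single library for each assay in each condition, no difference below has a replicate check and none was tested. The base changes in the mutant, the way the microRNA was introduced and its level are not given in the sources used here.

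Mature hepatocytes secrete most proteins of blood plasma, assemble lipoproteins, clear ammonia, make glucose and oxidise drugs and bile acid precursors. Many of their genes are known to be switched on in liver development by factors of the HNF1, HNF4, FOXA and C/EBP families. Many are low in progenitor cells and in most dividing liver lines. H3K4me3 marks active or poised promoters, H3K27me3 is laid down by Polycomb complexes over repressed genes, and H3K9me3 marks heterochromatin. The overexpressed microRNA pairs with mRNAs mainly through its seed, shown in capitals (bases 2 to 8) in the mature sequence from RefSeq (GRCm38.p6):
mmu-miR-93-5p: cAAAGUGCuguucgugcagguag

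In RNA-seq the tables held 16822, 18076 and 18328 assembled loci in miR-93-5p, mutant and scr cells, and the deposited confidence bounds implied 15301800, 19513500 and 14589400 fragments. The pulldown tables held 18031, 14815 and 15302 loci and implied 3814040, 5855720 and 5322280 fragments. Levels are FPKM, fragment counts scaled to transcript length and library size, each with the deposited lower and upper bound. A gene was called matched when it and an assembled locus were each other's best overlap and shared at least 0.5 of their joint length. The median pulldown locus spanned 2121 bp in miR-93-5p cells, against 9086 bp in mutant and 9176.5 bp in scr cells, and 26.3% of genes were matched in that library, against 38.3% and 38.8%. The part of locus width and of depth in that share was not tested. Peak scores are those of the authors' peak caller.

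The cells expressed few of the hepatocyte genes. In RNA-seq, 6 of the 32 genes were matched in miR-93-5p cells, 8 in mutant cells and 11 in scr cells, where 48.4%, 48.7% and 49.9% of all protein-coding genes were matched. No matched locus was found in any library for 21 of the 32 (all genes 47.6%), among them all 4 cytochrome P450 genes, Cps1 of the urea cycle, the gluconeogenic genes G6pc and Pck1, the glycogen synthase Gys2 and the asialoglycoprotein receptor subunit Asgr1. Alb, the gene of the main plasma protein, reached 1.08 FPKM in mutant cells and 1.30 FPKM in scr cells and had no locus in miR-93-5p cells. In scr cells Alb was assembled in separate pieces. The matched piece shared 0.510 of the joint length, near the required 0.5, and the other had 0.934 FPKM over 41.7% of the gene. The RNA data thus go against calling these cells mature hepatocytes, and the name hepatocyte is used below for the genes and not for the cells. In a bulk culture, fewer cells that express a gene and less RNA per cell cannot be told apart.

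**Figure D1:**
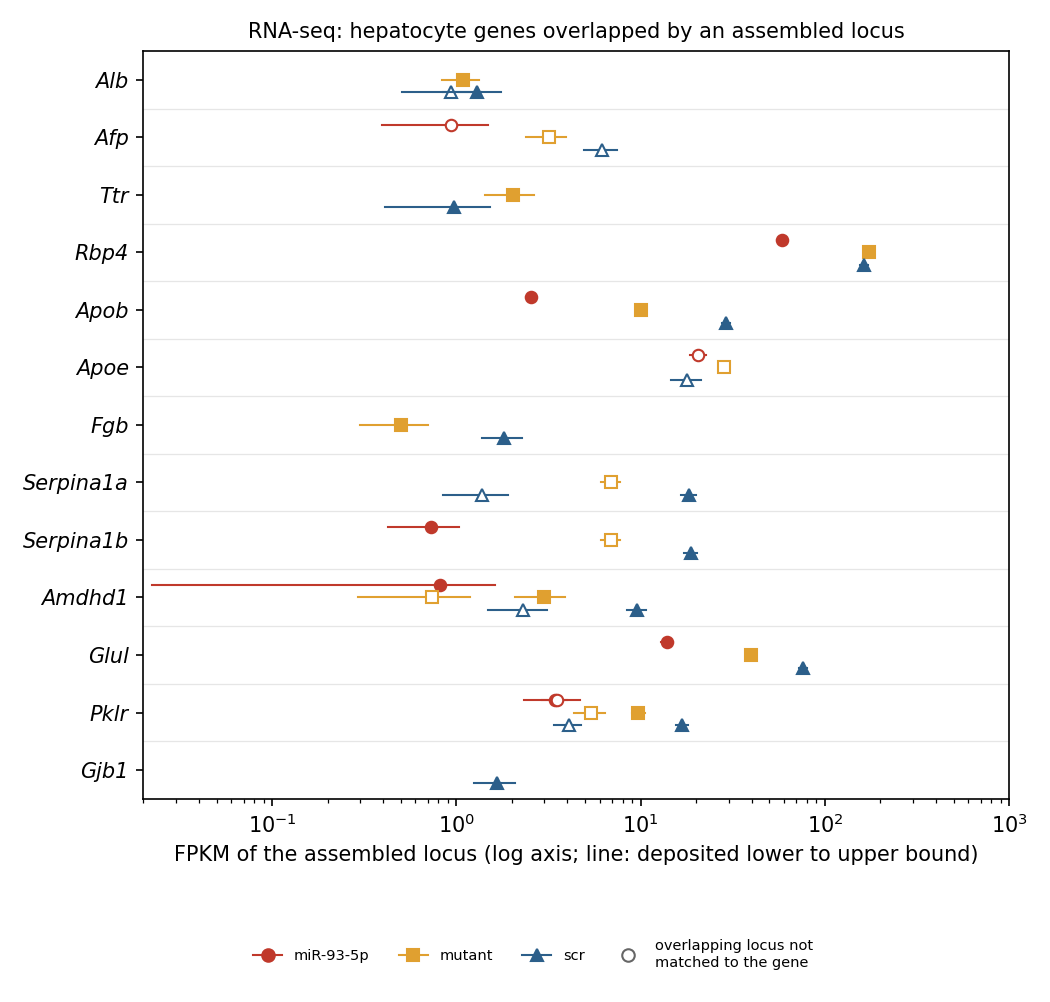
FPKM on a log axis of every RNA-seq locus that overlaps one of the hepatocyte genes in miR-93-5p (circles), mutant (squares) and scr cells (triangles), 1 library each. Lines run between the deposited lower and upper bounds, filled symbols are loci matched to the gene, open symbols are other loci that overlap it, and a missing symbol means no locus. Rbp4, Apob, Amdhd1, Glul and Pklr have filled symbols in all 3 libraries, and in each of them miR-93-5p cells are lowest.

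All 5 genes that could be compared across the 3 RNA-seq libraries were lower in miR-93-5p cells than in both others. These were Rbp4, Apob, Amdhd1, Glul and Pklr, each matched in every library with a mean of at least 1 FPKM. Each was lower in miR-93-5p cells by 2-fold or more against both mutant and scr cells, a state that 0.879% of all 8420 compared genes shared. Their median log2 ratio (FPKM + 1) was -2.38 for miR-93-5p over scr and -1.45 for miR-93-5p over mutant, beside medians of 0.03 and 0.01 over all compared genes. Both comparisons share the miR-93-5p library.

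Rbp4 encodes the plasma carrier of retinol and was the most abundant of the set (mm9 chr19:38191110-38199811). Its level was 58.8 FPKM (deposited bounds 55.2 to 62.5) in miR-93-5p cells, 173 FPKM (165 to 180) in mutant cells and 163 FPKM (155 to 171) in scr cells. The bounds of mutant and scr cells overlapped and both lay above those of miR-93-5p cells. On the log2 scale miR-93-5p cells differed by -1.54 against mutant and by -1.46 against scr. Between mutant and scr cells the log2 ratio was 0.08.

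Apob is the structural protein of very low density lipoproteins (mm9 chr12:7984454-8023641). It stood at 2.54 FPKM (2.38 to 2.70) in miR-93-5p cells, 10.0 FPKM (9.74 to 10.3) in mutant cells and 29.1 FPKM (27.8 to 30.4) in scr cells. The 3 intervals were apart from each other, and the log2 ratio of miR-93-5p over scr, -3.09, was the lowest of the 5. The numbers of fragments implied by the same bounds, 985 in miR-93-5p, 5491 in mutant and 1945 in scr cells, kept miR-93-5p cells lowest but put mutant cells above scr cells (log2 1.10, against -1.45 in FPKM). Bounds that carry more than counting error lower the implied number, so the order of mutant and scr cells at Apob cannot be told from these files.

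Glul, glutamine synthetase, binds ammonia in the hepatocytes around the central vein (mm9 chr1:155747074-155756853). It had 13.9 FPKM (12.9 to 14.9) in miR-93-5p cells, 39.6 FPKM (37.6 to 41.6) in mutant cells and 76.3 FPKM (72.6 to 80.0) in scr cells. Amdhd1, an enzyme of histidine breakdown (mm9 chr10:92986083-93002778), had 0.817 FPKM (0.022 to 1.61) in miR-93-5p cells, 2.99 FPKM (2.07 to 3.91) in mutant cells and 9.58 FPKM (8.41 to 10.8) in scr cells. The miR-93-5p value of Amdhd1 rested on 4.23 implied fragments and its lower bound was near 0. The matched loci of Glul also overlapped the annotated gene Teddm2 in all 3 libraries. For both genes the order was miR-93-5p below mutant below scr, with log2 ratios of miR-93-5p over scr of -2.38 for Glul and -2.54 for Amdhd1. Against mutant they were -1.45 and -1.13.

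Pklr encodes the pyruvate kinase of liver and red cells, which ends glycolysis (mm9 chr3:88940064-88950706). It had 3.45 FPKM (2.91 to 3.99) in miR-93-5p cells, 9.74 FPKM (8.94 to 10.5) in mutant cells and 16.8 FPKM (15.6 to 18.1) in scr cells. Its matched loci also overlapped Hcn3, its annotated neighbour, in all 3 libraries, and how shared reads were assigned is not given in the sources used here. The intervals did not overlap, and the log2 ratio of miR-93-5p was -1.27 against mutant and -2.00 against scr. In mutant against scr cells, Apob and Amdhd1 differed by 2-fold or more too in FPKM, lower in mutant cells (2 of 5, beside 3.63% of all compared genes), but in implied fragments Amdhd1 was lower and Apob higher, 1 gene each way (7.03% and 7.82%). In implied fragments, 3 of the 5 genes (Amdhd1, Apob and Pklr) were lower in miR-93-5p cells than in both others by 2-fold or more, beside 3.76% of all genes, while Rbp4 and Glul kept the direction with log2 ratios of -0.66 and -0.74 over mutant.

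**Figure D2:**
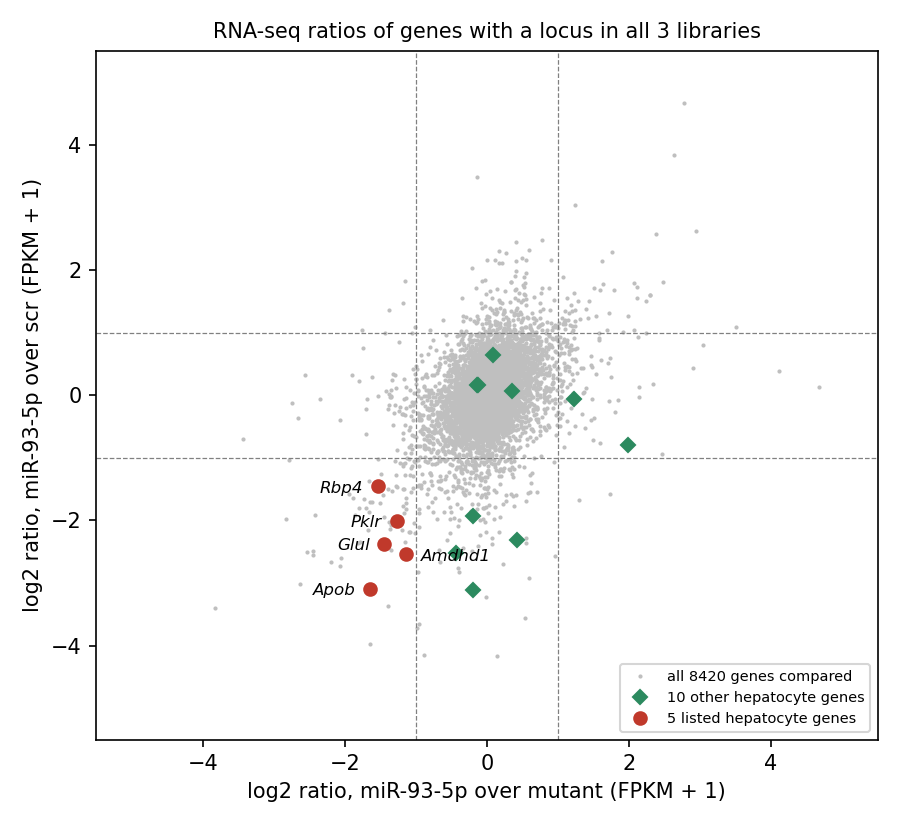
Log2 ratio of FPKM + 1 in miR-93-5p over mutant cells (x axis) and over scr cells (y axis) for the 8420 genes compared (grey), 10 other hepatocyte genes (green diamonds) and the 5 compared genes of the set (red). Dashed lines mark 2-fold, both axes share the miR-93-5p library, and the 5 red points lie below -1 on both axes while none of the green points does.

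A second group of 6 genes was matched in some libraries only. In scr cells 5 of the 32 had a matched locus that miR-93-5p cells lacked, Alb, Ttr, Fgb, Gjb1 and Serpina1a (3.16% of all genes), and 0 had the opposite pattern (1.67%). Ttr, the thyroxine carrier transthyretin, had 2.04 FPKM (1.44 to 2.64) in mutant cells and 0.969 FPKM (0.408 to 1.53) in scr cells, and the intervals overlapped. Fgb, the fibrinogen beta chain, had 0.50 FPKM (0.300 to 0.700) in mutant cells and 1.82 FPKM (1.39 to 2.26) in scr cells. Gjb1, the gap junction protein connexin 32, was seen in scr cells alone, at 1.67 FPKM (1.24 to 2.09). The levels of Alb, Ttr, Fgb and Gjb1 lay near the floor at which a locus is assembled, so a missing locus at this depth does not show that the RNA is absent.

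The alpha-1-antitrypsin genes encode the main elastase inhibitor of plasma, and Serpina1a and Serpina1b stood well above that floor in scr cells. Serpina1b had 0.728 FPKM (0.426 to 1.03) in miR-93-5p cells and 18.7 FPKM (17.1 to 20.2) in scr cells. Serpina1a had no locus in miR-93-5p cells and 18.3 FPKM (16.6 to 20.0) in scr cells. In mutant cells 1 locus of 6.91 FPKM (6.07 to 7.75) ran across Serpina1b, Serpina1d and Serpina1a and could not be assigned to any of them. Serpina1c had no RNA-seq locus. The paralogs are near-identical and how the authors counted reads shared between them is not given in the sources used here, so the split among them is uncertain.

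Partial loci covered 2 further genes. Afp, the fetal counterpart of albumin, was covered over its 3' end alone, 21.0% to 21.7% of the gene, at 0.938 FPKM (0.394 to 1.48) in miR-93-5p cells, 3.16 FPKM (2.40 to 3.93) in mutant cells and 6.20 FPKM (4.93 to 7.47) in scr cells. The intervals were apart and followed the order of Glul, Amdhd1 and Pklr. Apoe, the ligand for uptake of lipoprotein remnants, lay in a locus that also held Tomm40, at 20.5, 28.3 and 17.9 FPKM in miR-93-5p, mutant and scr cells, and its own share cannot be told. The remaining 19 genes had no RNA-seq locus at all.

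H3K4me3 was found on the 5 compared genes and Fgb, and on none of the genes without a matched RNA-seq locus. H3K4me3 lay on 6 of the 32 loci in miR-93-5p cells (56.6% of all genes) and on 4 in scr cells (56.3%). The 4 loci marked in both (55.3%) were Rbp4, Apob, Amdhd1 and Glul, and in both conditions the peak spanned the start site. At Rbp4 the peaks were 4460 bp wide in miR-93-5p cells and 4546 bp in scr cells, at Glul 3193 bp and 3069 bp, at Amdhd1 1739 bp and 1910 bp, and at Apob 1453 bp and 2151 bp. H3K4me3 thus covered the start sites of these 4 genes in miR-93-5p cells as well, where their RNA was lower. None of the 21 genes without a matched RNA-seq locus carried an H3K4me3 peak in miR-93-5p cells (14.7% of all 8785 such genes) or in scr cells (13.9%).

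Fgb and Pklr carried H3K4me3 in miR-93-5p cells alone (1.29% of all genes), although RNA of both was lower or not assembled there. The Fgb peak was 1570 bp wide with a score of 527, from 500 to 2070 bp downstream of the annotated start. The Pklr peak was 1396 bp wide with a score of 152, from 132 to 1528 bp downstream. Neither reached the annotated start site. The matched RNA-seq loci of Pklr began 439, 455 and 454 bp inside that start in miR-93-5p, mutant and scr cells, within the span of the peak. At Fgb, scr cells instead had an H3K27me3 peak of 544 bp in the gene, with a score of 57.8, near the lowest score in the list (50).

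The promoters of these genes are shown because they set the marked start sites beside unmarked ones. Each line gives the 250 bases before the RefSeq start (GRCm38.p6), with capitals for matches to 6 motifs, of the TATA box, of liver factors and of the E-box, that are spelled out after the sequences. A match on the strand opposite to the gene appears as its reverse complement, and none of the matches in these 5 promoters overlap. Glul (chr1:153899679-153899928, + strand) and Apob (chr12:7977427-7977676, + strand) had H3K4me3 over the start in both conditions, and Pklr (chr3:89135892-89136141, + strand) and Fgb (chr3:83049864-83050113, - strand) had it downstream in miR-93-5p cells alone. The matched loci of Pklr began downstream of the start used for its printed sequence. G6pc (chr11:101367466-101367715, + strand) had no H3K4me3 and, in scr cells, the broadest H3K27me3 of the set.
Glul: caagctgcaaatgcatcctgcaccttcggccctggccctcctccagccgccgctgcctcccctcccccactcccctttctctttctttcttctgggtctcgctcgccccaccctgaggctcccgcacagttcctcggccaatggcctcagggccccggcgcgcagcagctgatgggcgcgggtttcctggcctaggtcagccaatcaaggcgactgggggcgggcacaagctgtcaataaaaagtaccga
Apob: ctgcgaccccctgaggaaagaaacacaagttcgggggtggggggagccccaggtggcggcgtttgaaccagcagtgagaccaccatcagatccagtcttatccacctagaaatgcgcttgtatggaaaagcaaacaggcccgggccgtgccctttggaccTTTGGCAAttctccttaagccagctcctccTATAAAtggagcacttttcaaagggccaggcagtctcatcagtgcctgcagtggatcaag
Pklr: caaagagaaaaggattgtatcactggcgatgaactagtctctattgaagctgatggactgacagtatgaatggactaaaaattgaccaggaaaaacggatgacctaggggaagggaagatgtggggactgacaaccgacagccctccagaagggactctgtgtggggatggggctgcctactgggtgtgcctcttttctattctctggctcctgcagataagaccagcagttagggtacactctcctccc
Fgb: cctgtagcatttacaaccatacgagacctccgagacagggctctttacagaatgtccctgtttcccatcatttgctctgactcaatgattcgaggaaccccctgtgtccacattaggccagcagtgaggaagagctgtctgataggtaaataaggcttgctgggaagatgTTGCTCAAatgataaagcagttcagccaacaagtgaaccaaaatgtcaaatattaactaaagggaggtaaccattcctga
G6pc: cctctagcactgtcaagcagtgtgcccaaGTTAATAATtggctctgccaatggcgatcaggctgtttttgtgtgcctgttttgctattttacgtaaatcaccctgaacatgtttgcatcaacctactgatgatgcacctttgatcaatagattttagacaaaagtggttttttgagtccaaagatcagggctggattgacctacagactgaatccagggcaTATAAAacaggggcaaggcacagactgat

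Promoter sequence was available for 27 of the 32 genes. They held a median of 3 CpG dinucleotides per 250 bases, beside 11 over all 14787 promoters. The 6 with H3K4me3 in either condition had a median of 6 and the 21 without it a median of 3, where all genes with and without the mark had 17 and 3. For this split the mark was counted anywhere on the gene locus. The 6 thus include Fgb and Pklr, whose peaks did not reach the start, and the 21 include Apoa2, with a peak upstream. Glul, with 15 CpG and 64.8% GC, was the highest of the set and the printed G6pc promoter, with 2 CpG and 43.2% GC, was near the low end. The TATA box, TATAAA, occurred in 8 of the 27 promoters (11.2% of all promoters), in Apob 60 bases and in G6pc 29 bases before the start. The C/EBP motif, TTGCNNAA, occurred in 8 (8.99%), in Fgb 80 and in Apob 90 bases before the start. The HNF1 motif, GTTAATNAT, occurred in Afp, Alb, Fga and G6pc (0.724%). The FOXA motif, TGTTTAC, occurred in Apoa2, Cyp3a11 and Rbp4 (2.58%). The HNF4 motif, CAAAGTCCA, occurred in Cyp3a11 alone (0.413%). The E-box, CACGTG, which binds factors of glucose response among others, occurred in none of the 27 (7.09%). All 6 motifs were searched on both strands, and a match of letters says nothing of binding.

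H3K27me3 was the commonest mark on the set. It lay on 13 of the 32 loci in miR-93-5p cells (19.0% of all genes) and on 17 in scr cells (20.4%), and 12 loci had it in both (15.3%). Cyp2e1 had it in miR-93-5p cells alone (3.71%), and Cyp1a2, Fgb, Fgg, Pck1 and Tdo2 in scr cells alone (5.08%). Genes with little RNA often carry this mark, so the closer background is the genes without a matched RNA-seq locus. Among the 21 such genes of the set, 10 were marked in miR-93-5p cells (35.6% of all 8785 such genes), 13 in scr cells (37.3%) and 14 in either (43.9%). With peak scores of at least 100, 4 of the 21 were marked in miR-93-5p cells (13.0% of such genes) and 6 in scr cells (22.6%).

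H3K27me3 covered more of these genes in scr cells, as it did over all genes. Of the summed length of the 32 loci, 3.91% was covered in miR-93-5p cells and 11.3% in scr cells, while the shares over all genes were 1.01% and 2.53%. The covered length was not summed over the closer background, the genes without a matched RNA-seq locus. The median H3K27me3 peak of the whole list was also narrower in miR-93-5p cells, 473 bp against 1049 bp in scr cells, with 43501 and 44412 peaks. The part of that width difference in the values of single genes was not tested. Coverage was higher in scr cells for 16 of the 18 marked genes and higher in miR-93-5p cells for Cps1 and Cyp2e1. The same count over all marked genes was not made. The whole peak list covered 23.7 Mb in miR-93-5p cells and 60.0 Mb in scr cells, so more coverage in scr cells is not particular to this set.

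The 4 genes with the widest coverage in scr cells were G6pc, Cyp1a2, Asgr1 and Hpd, which have unlike roles. G6pc, glucose-6-phosphatase (mm9 chr11:101228875-101239217), was covered over 33.1% of its locus in miR-93-5p cells and 89.7% in scr cells. Its strongest peak was 1694 bp wide with a score of 205 in miR-93-5p cells and 4370 bp with a score of 612 in scr cells, and the scr peaks spanned the start site while those of miR-93-5p cells did not. Hpd, an enzyme of tyrosine breakdown, was covered over 28.9% in miR-93-5p cells and 69.2% in scr cells, with the start site inside a peak in both. Asgr1, which clears desialylated glycoproteins from blood, was covered over 34.3% in miR-93-5p cells and 72.9% in scr cells.

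Cyp1a2, a drug-oxidising enzyme, had 4 peaks over 75.4% of its locus in scr cells, including the start site, and none in miR-93-5p cells. Fgg, the fibrinogen gamma chain, had 3 peaks over 46.9% in scr cells and likewise none in miR-93-5p cells. The other 3 genes marked in scr cells alone had 1 peak each, over 13.8% of Pck1 (phosphoenolpyruvate carboxykinase, for glucose synthesis), 7.20% of Fgb and 2.90% of Tdo2 (which starts tryptophan breakdown). Cyp2e1, which oxidises ethanol, showed the opposite pattern with 2 peaks over 8.12% in miR-93-5p cells. Each list was called on its own, so scores set side by side here describe each list and show no change between libraries.

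The remaining marked genes kept H3K27me3 in both conditions. Alb was covered over 3.37% in miR-93-5p cells and 27.7% in scr cells, Ahsg (the plasma protein fetuin-A) over 12.5% and 32.3%, and Fga (the fibrinogen alpha chain) over 6.67% and 23.1%. Amdhd1, which had RNA and H3K4me3 at its start, was covered over 2.37% in miR-93-5p cells and 19.4% in scr cells, in peaks at least 5260 bp downstream of the start. Gjb1 was covered over 4.11% and 13.8%, Gys2 over 3.00% and 9.62%, Afp over 9.13% and 12.3%, and Tat, which starts tyrosine breakdown, over 21.6% and 27.3%, in miR-93-5p and scr cells. Cps1, the first enzyme of the urea cycle, was covered over 1.90% in miR-93-5p cells and 1.26% in scr cells. At Afp and Tat a peak reached the start site in miR-93-5p cells, and at Fga in scr cells.

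**Figure D3:**
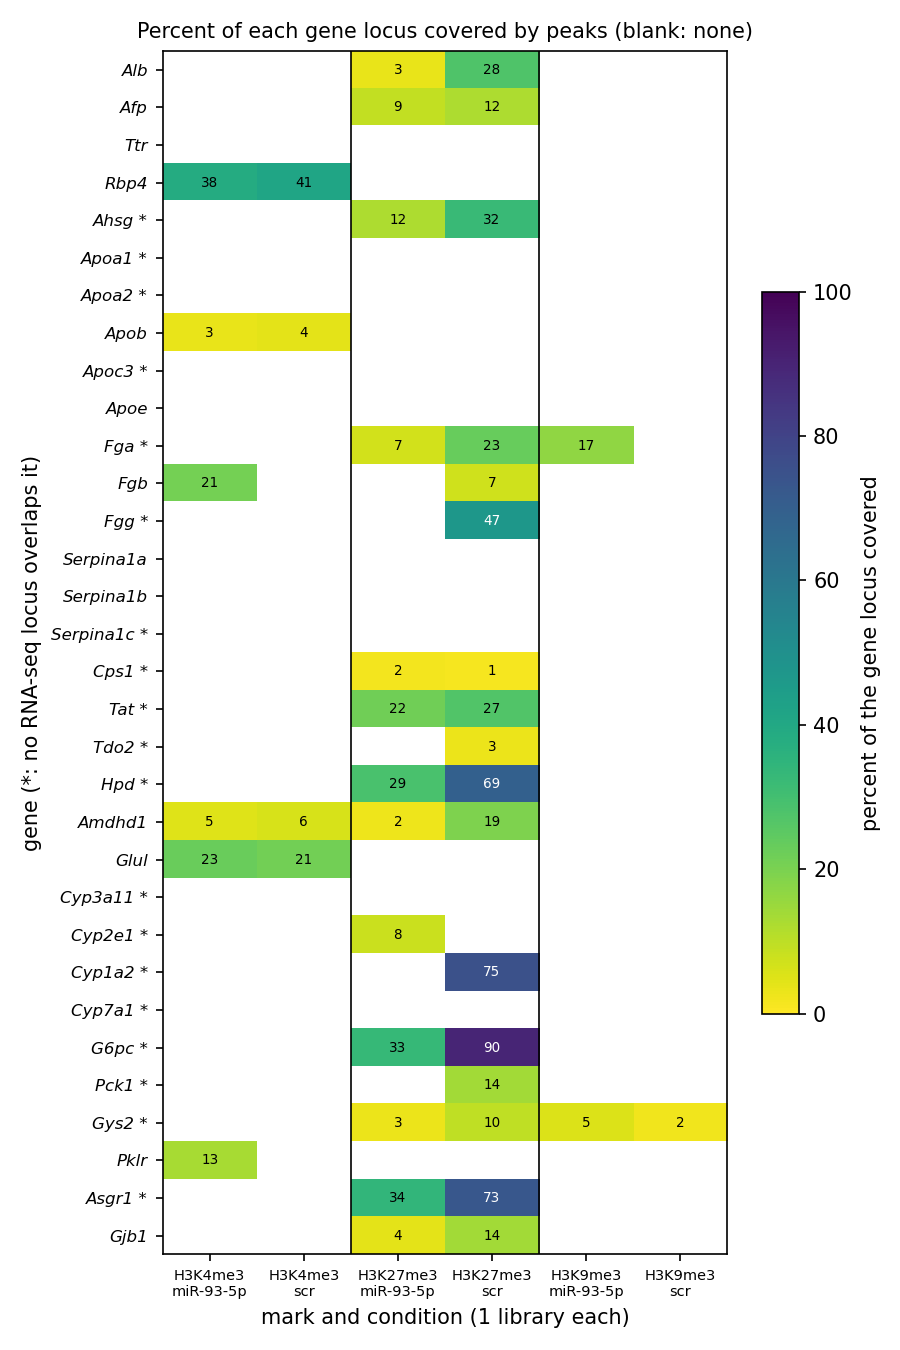
Percent of each gene locus (rows) covered by peaks of H3K4me3, H3K27me3 and H3K9me3 in miR-93-5p and scr cells (columns, 1 library each). Numbers and shading give the percent and blank cells have no peak. In the H3K27me3 columns scr values are higher for 16 genes, up to 89.7% for G6pc, and H3K4me3 is confined to 6 genes. The count of 16 was not made over all marked genes.

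H3K9me3 was rare on the set. Gys2, the liver glycogen synthase, had 2 peaks in miR-93-5p cells and 1 in scr cells, and Fga had 1 peak of 1330 bp in miR-93-5p cells. These are 2 of 32 loci in miR-93-5p cells (20.2% of all genes) and 1 in scr cells (15.4%). No peak of any mark lay on 10 of the 32 loci (22.1%), namely Ttr, Apoa1, Apoa2, Apoc3, Apoe, the 3 Serpina1 paralogs, Cyp3a11 (the main drug-oxidising enzyme of mouse liver) and Cyp7a1 (the rate-limiting enzyme of bile acid synthesis). Of these, 7 had no matched RNA-seq locus either (43.2% of all such genes had no mark). Serpina1a and Serpina1b had 18.3 and 18.7 FPKM in scr cells without an H3K4me3 peak on the annotated locus.

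The pulldown gave another order of conditions, with mutant cells highest. Loci were matched for 3 of the 32 genes in miR-93-5p cells, 11 in mutant cells and 7 in scr cells. Of all genes, 26.3%, 38.3% and 38.8% were matched in these libraries. For 21 genes of the set there was no matched locus (all genes 56.8%). Of the 11 genes, 4 were matched in mutant cells alone, Apoa1, Fgb, Gjb1 and Serpina1c (2.77% of all genes), and 4 in mutant and scr cells but not in miR-93-5p cells (10.4%). No gene of the set was matched in miR-93-5p or scr cells alone. Among the 7 genes matched in both mutant and scr cells, 6 had a higher FPKM in mutant cells, as had 42.8% of all genes so matched. What the bait captured in scr cells is not stated, and the pulldown levels cannot be set against an input.

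Rbp4 had 54.7 FPKM (49.6 to 59.8) in miR-93-5p cells, 595 FPKM (568 to 622) in mutant cells and 116 FPKM (108 to 123) in scr cells. Glul had 8.37 FPKM (7.37 to 9.36), 38.1 FPKM (35.7 to 40.5) and 19.3 FPKM (17.6 to 21.0) in miR-93-5p, mutant and scr cells. Amdhd1 had 3.54 FPKM (1.94 to 5.14) in miR-93-5p cells, 18.2 FPKM (14.6 to 21.9) in mutant cells and 2.55 FPKM (1.57 to 3.52) in scr cells. All 3 were thus highest in mutant cells, and the bounds of miR-93-5p and scr cells overlapped for Amdhd1. The mutant locus of Amdhd1 ran on into Hal, its neighbour in histidine breakdown, and the miR-93-5p locus covered little more than the required share of the gene (0.502 against 0.5).

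Rbp4 and Amdhd1 were at least 2-fold higher in mutant cells than in both other pulldowns (10.9% of 5246 compared genes), with log2 ratios of mutant over scr of 2.35 and 2.44. In implied fragments the ratio was 0.88 for Rbp4, under 2-fold, and 1.38 for Amdhd1, and at an overlap of 0.9 Amdhd1 was no longer matched in all 3 libraries. Glul reached 0.94. Rbp4 and Glul were lower by 2-fold or more in miR-93-5p cells than in both others (11.9%), but the median of all compared genes in that library was itself shifted by -0.48 over scr and -0.43 over mutant. After scaling to a median ratio of 1, 0 genes of the set kept that call, with log2 ratios of miR-93-5p over scr of -0.54 for Rbp4 and -0.63 for Glul. No gene of the set was enriched at least 2-fold in the miR-93-5p pulldown over both others (1.64% of all genes).

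Of the 16 genes of secreted plasma proteins and apolipoproteins, 7 had a matched locus in the mutant pulldown, beside 38.3% of all genes. Rbp4 is given above and the other 6 here. Ttr had 68.3 FPKM (59.2 to 77.5) in mutant cells and 2.16 FPKM (1.03 to 3.28) in scr cells, Fgb had 37.0 FPKM (34.6 to 39.4) in mutant cells alone, and Apoa1, the main protein of high density lipoprotein, had 7.17 FPKM (5.60 to 8.73) in mutant cells alone. Serpina1b had 43.1 FPKM (39.6 to 46.6) in mutant and 17.3 FPKM (15.3 to 19.4) in scr cells, Serpina1a 15.2 and 6.00 FPKM, and Serpina1c 4.69 FPKM in mutant cells alone. In the mutant RNA-seq library Ttr and Fgb had stood at 2.04 and 0.50 FPKM and Apoa1 had no locus. FPKM of the 2 assays is not on a common scale. It summed to 3385610 over all loci of the mutant pulldown and to 1159590 in mutant RNA-seq, with 68.4% and 54.6% in the top 10 loci. The 2 assays were assembled separately, on different genome builds, and were not tested against each other.

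Pklr, the single gene of glucose metabolism with pulldown loci, did not follow this order, with 4.21 FPKM (1.68 to 6.74) in mutant cells and 4.58 FPKM (3.18 to 5.97) in scr cells. Gjb1 had 1.90 FPKM (1.32 to 2.48) in mutant cells and a partial locus of 1.41 FPKM (0.821 to 2.01) in scr cells. Partial loci at the 3' end gave Afp 12.9, 17.1 and 13.0 FPKM in miR-93-5p, mutant and scr cells, with overlapping bounds. At Apob only 3' pieces were assembled, of 7.09 and 3.68 FPKM in miR-93-5p cells, 9.72 FPKM in mutant cells and 3.35 FPKM in scr cells. Partial loci of Apoe had 1.95, 0.840 and 3.61 FPKM, and a partial locus of Serpina1a had 1.63 FPKM in miR-93-5p cells. A locus across the gap between Tomm40l and Apoa2 cannot be assigned. Alb had no pulldown locus.

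**Figure D4:**
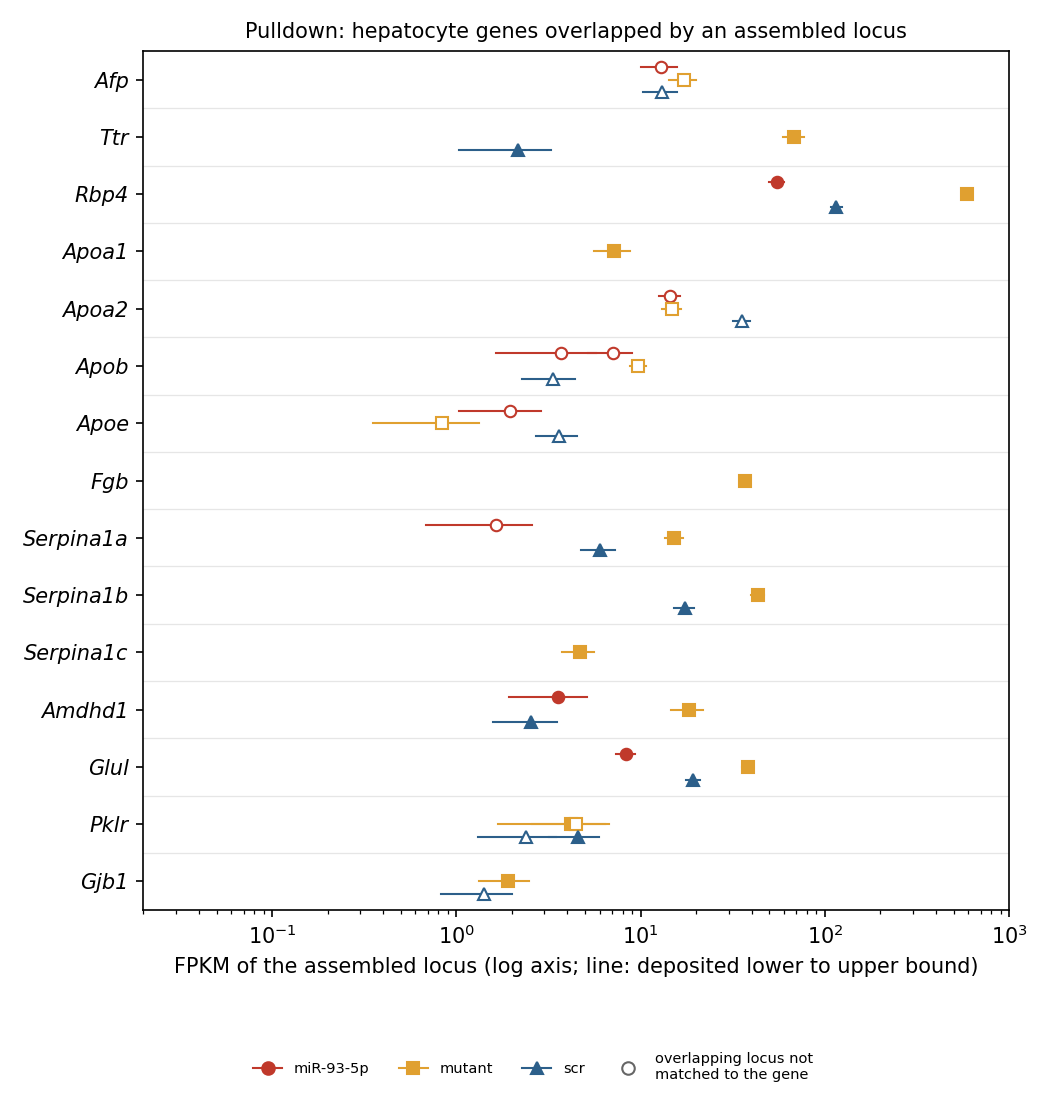
FPKM on a log axis of every pulldown locus that overlaps one of the hepatocyte genes in miR-93-5p (circles), mutant (squares) and scr cells (triangles), 1 library each. Lines run between the deposited bounds and open symbols are overlapping loci that were not matched to the gene. Rbp4 at 595 FPKM and Ttr at 68.3 FPKM are the highest mutant values, and Apoa1, Fgb and Serpina1c have a symbol for mutant cells alone.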

How the data were processed

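FPKM values with lower and upper bounds were deposited by the authors per assembled locus, 1 table for each RNA-seq and pulldown library. Peak lists with a MACS score per peak were deposited for 6 ChIP-seq libraries, called per library and scored by the authors. The submitters' processing notes name TopHat2, Cufflinks, Cuffdiff, CASAVA 1.4, Bowtie, MACS and mm9, with no settings. Pulldown loci with values above 0 fit GRCm38 coordinates, which the notes do not name, and their mm9 gene entries, all at 0, were not used as levels.

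Genes were placed by the mm9 loci of Ensembl IDs in the files (RNA-seq and peaks) or by RefSeq GRCm38.p6 (pulldown), and matched to loci by mutual best overlap of at least 0.5 of the joint length. Ratios are log2(FPKM + 1) between libraries for genes matched in all 3 with a mean of at least 1 FPKM, and a call is a 2-fold difference. A fold on this scale understates the change of low genes. Implied fragments are (2 × FPKM / (FPKM - lower bound)) squared, taking the bounds as 2 SD. Depth as read counts is not in these files. A gene counted as marked when its locus shared at least 1 bp with a peak. Start sites come from the strand in RefSeq's promoter table. With 1 library per condition no test was run. The matching was tested on simulated loci placed close to the ends of genes matched in all 3 libraries. Split, merged and narrow loci were not simulated. Python 3.11.15, pandas 2.3.3 and numpy 2.4.6 were used, with matplotlib 3.10.9 for plots.

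Values are given for each gene of the set with a locus or a changed mark, and for other lists for the 5 (hepatocyte) or 2 (other cell types and transcription factors) genes with the largest ratio of miR-93-5p over scr. The genes and lists were chosen with earlier results of these data known. Alternatives were a pseudocount of 0.1, no minimum FPKM, overlaps of 0.2 and 0.9, scaling to a median ratio of 1, implied fragments, peak scores of at least 100, a window of 2 kb around the start site, and coverage of at least 0.2 of the locus.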

Additional observations from a re-analysis of the deposited data

How the results depend on the processing

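No paired analysis was possible because each condition had 1 library per assay and the labels carry no replicate numbers; for the same reason no replicate could be left out. In RNA-seq the 5 genes lower in miR-93-5p cells than in both others became 3 of 5 in implied fragments, 6 of 6 compared at an overlap of 0.2 and 4 of 4 at an overlap of 0.9, and stayed 5 under the other 3 alternatives. Their median log2 ratio of miR-93-5p over scr, -2.38, became -1.28 in implied fragments and -2.19 at an overlap of 0.2. At Apob the log2 ratio of mutant over scr turned from -1.45 to 1.10 in implied fragments. In the pulldown, the 2 genes lower in miR-93-5p cells became 0 after scaling to a median ratio of 1 and 0 in implied fragments, and the 2 genes higher in mutant cells became 1 in implied fragments (Amdhd1) and 1 at an overlap of 0.9 (Rbp4). H3K27me3 on 13 loci in miR-93-5p cells became 4 at a score of at least 100, 4 at a coverage of at least 0.2 and 5 of 27 near the start site, and on 17 loci in scr cells 8, 9 and 11. The shares of all genes under these settings were 6.78%, 2.49% and 8.12% in miR-93-5p cells and 12.2%, 8.28% and 13.7% in scr cells. Among genes of the set without a matched RNA-seq locus, H3K27me3 became 4, 4 and 5 of 17 in miR-93-5p cells. The shares of all such genes were 13.0%, 5.09% and 14.8%. In scr cells it became 6 at the higher score, 8 at the higher coverage and 10 of 17 near the start site. All such genes had 22.6%, 16.1% and 21.9% there. H3K4me3 at a coverage of at least 0.2 was left on 3 loci in miR-93-5p cells and 2 in scr cells, and near the start site 1 gene without a matched locus gained it in each condition, Apoa2, from a peak upstream. H3K9me3 became 1 locus in miR-93-5p cells and 0 in scr cells at the higher score, and 0 in each under the other settings. Leaving out Afp and Apoe, which partial or shared loci overlap, a setting chosen after seeing the data, moved none of the counts of marked genes by over 1.5 times. The causes were not tested. Depth limits the low genes most, above all Amdhd1 in miR-93-5p cells with 4.23 implied fragments.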

Other observations

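A wider list of 81 other hepatocyte genes, of which 76 could be placed on mm9, was measured the same way. In RNA-seq 11, 15 and 17 of the 76 were matched in miR-93-5p, mutant and scr cells (48.4%, 48.7% and 49.9% of all genes), and 10 were compared. None of the 10 was lower by 2-fold or more in miR-93-5p cells than in both others, 4 were lower in miR-93-5p than in scr cells (3.86% of all genes) and 6 were lower in mutant than in scr cells (3.63%). The median log2 ratio of miR-93-5p over scr was -0.42 over the 10. Hpx, the plasma carrier of haem, had 0.872, 1.15 and 15.1 FPKM in miR-93-5p, mutant and scr cells. Hp, the haemoglobin carrier haptoglobin, had 1.14, 0.590 and 9.63 FPKM in the same order, Abcc2, a bile canalicular transporter, had 3.76, 5.43 and 26.2 FPKM, and Hal, the first enzyme of histidine breakdown, had 0.571, 0.805 and 5.00 FPKM. C3, the central complement component, stood lowest in mutant cells, at 14.4, 2.89 and 25.5 FPKM. Cp, Asl, Khk and Fah differed by less than 2-fold among the 3 libraries. H3K27me3 lay on 32 of the 76 loci in miR-93-5p cells and on 32 in scr cells (19.0% and 20.4% of all genes, and 35.6% and 37.3% of those without a matched RNA-seq locus).

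In the pulldown 3, 19 and 14 of 80 other hepatocyte genes were matched in miR-93-5p, mutant and scr cells (26.3%, 38.3% and 38.8% of all genes). Of these genes, 5 were matched in mutant cells alone (2.77% of all genes). Of the 14 matched in both mutant and scr cells, 8 had a higher FPKM in mutant cells (42.8%). Apoc2, the activator of lipoprotein lipase, had 22.0, 622 and 20.8 FPKM in miR-93-5p, mutant and scr cells. Trf, transferrin, had 30.2 FPKM in mutant and 2.85 FPKM in scr cells, and Cfb, complement factor B, had 37.6 and 2.56 FPKM. C3 had 5.82 and 18.9 FPKM, and Ass1, an enzyme of the urea cycle, 2.46 and 6.24 FPKM in mutant and scr cells. Trf, Cfb, C3 and Ass1 were chosen after their values were seen. Asl and Khk went the other way or stayed level, with 17.0 and 23.7 FPKM in mutant and 36.2 and 24.6 FPKM in scr cells.

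Of 16 liver transcription factors 7 were compared in RNA-seq, with median log2 ratios of -0.83 for miR-93-5p over scr and -0.24 over mutant. In miR-93-5p cells 2 of the 7 were lower by 2-fold or more than in scr cells (3.86% of all genes), 1 was lower than in both others and 0 were higher. The 2 with the largest ratio over scr were Hnf4a and Cebpa. Hnf4a had 7.22, 27.4 and 40.6 FPKM and Cebpa 5.17, 3.00 and 15.3 FPKM in RNA-seq of miR-93-5p, mutant and scr cells. Among markers of other cell types, the endothelial genes had no matched locus. Csf1r of macrophages had 1.16, 1.82 and 7.63 FPKM and Vim of mesenchymal cells 711, 784 and 1061 FPKM. Each was the single gene of its list that could be compared. Of 8 leukocyte markers 1, 1 and 2 were matched in miR-93-5p, mutant and scr cells. Of 8 stellate and mesenchymal markers 1 was matched in each of the 3 libraries. The epithelial keratin Krt8 had 230, 283 and 658 FPKM. The water channel Aqp1 of bile duct cells had 7.98, 61.1 and 17.4 FPKM. Krt8 and Aqp1 had the largest ratios of the 7 biliary and progenitor markers compared, whose median log2 ratio of miR-93-5p over scr was -0.28, with 2 lower and 1 higher by 2-fold or more (3.86% and 2.97% of all genes). The summed FPKM of the matched markers of that list was 2357, 2719 and 1978 in miR-93-5p, mutant and scr cells. No enterocyte marker was matched in all 3 libraries. Their part in the levels of the hepatocyte genes was not tested.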
